A study of Cavia porcellus with 18 samples.

Results

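The CG sites described here lie in H3K4me1 peaks of guinea pig (Cavia porcellus) hippocampus and were measured by 2 bisulfite assays. A site was taken when it was listed in the deposited table of CG sites and carried at least 20 reads in reduced representation bisulfite sequencing (RRBS). That left 69050 of 167387 distinct sites (41.3%), in 27664 of 45331 H3K4me1 peaks and on 288 scaffolds. The comparison asked whether the difference between the assays near transcription start sites, and inside peaks of RNA polymerase II, persists among sites with the same RRBS level. The RRBS level set the bins and also enters the difference, and the overall decline of the difference along the bins is therefore a description.

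The tissue came from 3 wild type male animals of 12 weeks. RRBS (6 libraries, read at 50 and at 100 bases) samples fragments next to restriction sites from all chromatin. ChIP-bisulfite sequencing (3 libraries, 1 per animal) applies the same chemistry to sonicated, formaldehyde-fixed chromatin precipitated with an antibody against H3K4me1. ChIP-seq with an antibody against RNA polymerase II phosphorylated on serine 5 (Pol II PS5, 3 libraries) gave the Pol II peaks. All groups share genotype, age, sex and tissue, and by their labels they differ in the assay. The deposited columns pool the animals. No spread between animals could be computed, and the intervals below describe the spread among sites and scaffolds of these pooled libraries.

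In mammals, methylation of cytosine in CG pairs is kept through cell division, and promoters rich in CG are mostly free of it. H3K4me1, monomethylation of lysine 4 of histone H3, is found at enhancers and on the flanks of active promoters, whereas the nucleosomes at an active start site itself mostly carry trimethylation. The serine 5 form of Pol II gathers at start sites, where transcription initiates. Bisulfite turns unmethylated cytosine into uracil and leaves methylated cytosine in place, so the level of a site is the share of its reads that kept a C. In bulk tissue an intermediate level cannot tell a mixture of cell types from a mixture within one type.

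The median site had 29 RRBS reads (quartiles 23 and 40). A level of 50% from 20 reads has a 95% Wilson interval of 29.9% to 70.1%, and one from 100 reads an interval of 40.4% to 59.6%. A site at 0 of 29 reads allows a level of up to 10.3%. These intervals and limits cover counting error only. ChIP-bisulfite reads per site were not in the site table. They were given over whole H3K4me1 peaks, and 98190 entries with a start site status of active were used. The entries were not reduced to distinct peaks or limited to peaks with selected sites. The mean number of ChIP-bisulfite reads per C position had a median of 16 (quartiles 14 and 17.9, minimum 10). Single ChIP-bisulfite levels are therefore likely coarser than the RRBS levels they are set against. Just inside the threshold, 5201 sites with exactly 20 reads averaged 54.2% in RRBS and 45.2% in ChIP-bisulfite. Just outside it, 5798 sites with 19 reads averaged 53.6% and 45.1%.

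Of the selected sites, 9450 (13.7%) lay within 1000 bases of the nearest listed start site and 59600 beyond. Inside a Pol II PS5 peak lay 1913 sites, in 660 H3K4me1 peaks, and 67137 lay outside. The classes overlap: 8.37% of the sites near a start site were inside a Pol II peak, against 1.88% of the sites beyond. The genes are given in the files by identifier only, and the hippocampal origin was not checked against marker genes here.

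Over all 69050 sites the mean level was 55.5% in RRBS and 46.2% in ChIP-bisulfite. The gap, defined here as ChIP-bisulfite minus RRBS, was therefore -9.27 percentage points (95% interval -9.61 to -8.93, clustered by scaffold). Along the bins of RRBS level the mean gap ran from 4.09 points at 0 to 9% through 1.28 at 10 to 19% and -2.74 at 20 to 29%. It went on to -5.94 at 30 to 39%, -10.2 at 50 to 59% and -17.8 at 90 to 100%. The mean was thus higher in ChIP-bisulfite than in RRBS at 0 to 19%, and lower in all bins from 20% upwards. Single sites often went the other way. At 0 to 9% the gap was negative at 19.3% and positive at 13.8% (median 0). At 10 to 19% it was negative at 73.9% (median -11 points). Positive gaps made up 50.9% at 70 to 79% (median 3) and 58.9% at 80 to 89% (median 11). From 20 to 69% the medians ran from -30 to -9 points and had the sign of the means. At 40 to 59% in RRBS, where a gap has room in both directions, the mean gap was -9.55 points (-10.5 to -8.61) over 8969 sites. In ChIP-bisulfite 33.8% of these sites were at exactly 0% and 17.7% at exactly 100%, so the ends of that scale bounded many gaps.

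**Figure D1:**
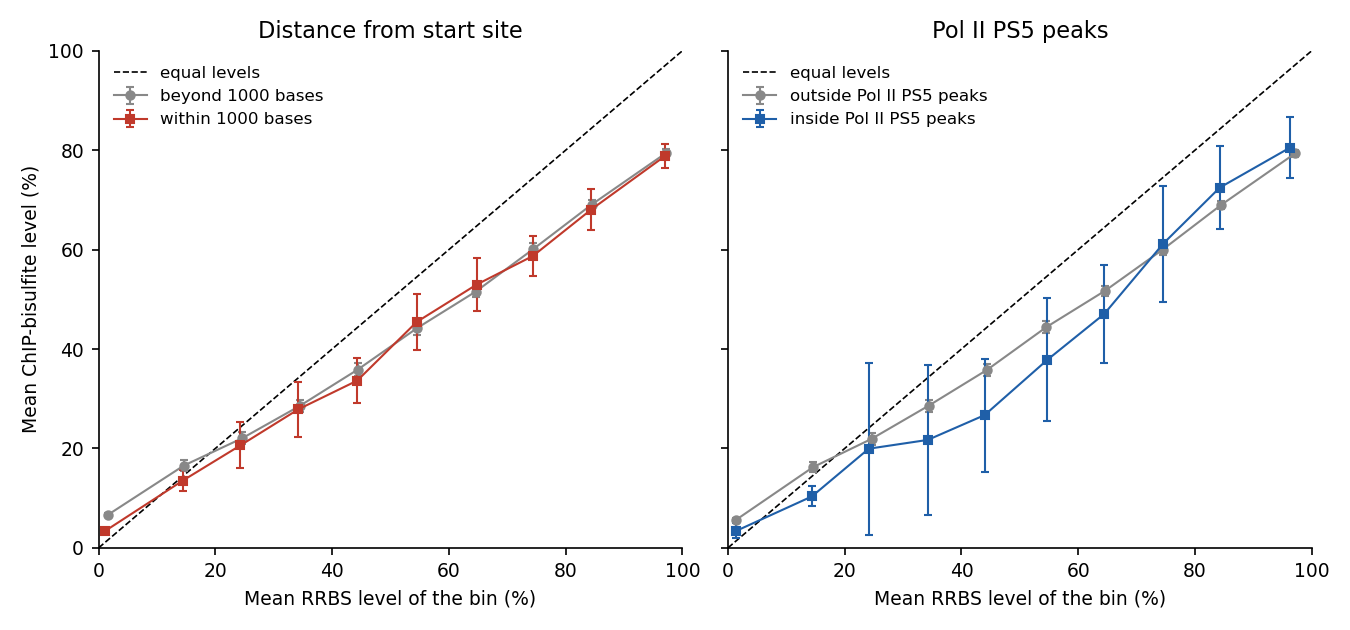
Mean ChIP-bisulfite level (%) against mean RRBS level (%) in bins of 10 points, for sites within and beyond 1000 bases of a start site (left) and inside and outside Pol II PS5 peaks (right); bars are 95% intervals clustered by scaffold and the dashed line marks equal levels. All 4 curves cross the dashed line in the lowest bins and end near 80% where RRBS was 90 to 100%.

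Means hide how uneven single sites were. Among the sites at 40 to 59% in RRBS, 48.3% had a ChIP-bisulfite level of at most 20%, 28.9% had at least 80%, and only 22.8% lay between. The standard deviation of their gap was 40.7 points. At 90 to 100% in RRBS, 14.3% of the sites had at most 20% in ChIP-bisulfite, whereas at 0 to 9% this share was 91.9%. Sites at exactly 100% in RRBS averaged 81.8% in ChIP-bisulfite, and sites at exactly 0% averaged 3.93%.

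**Figure D2:**
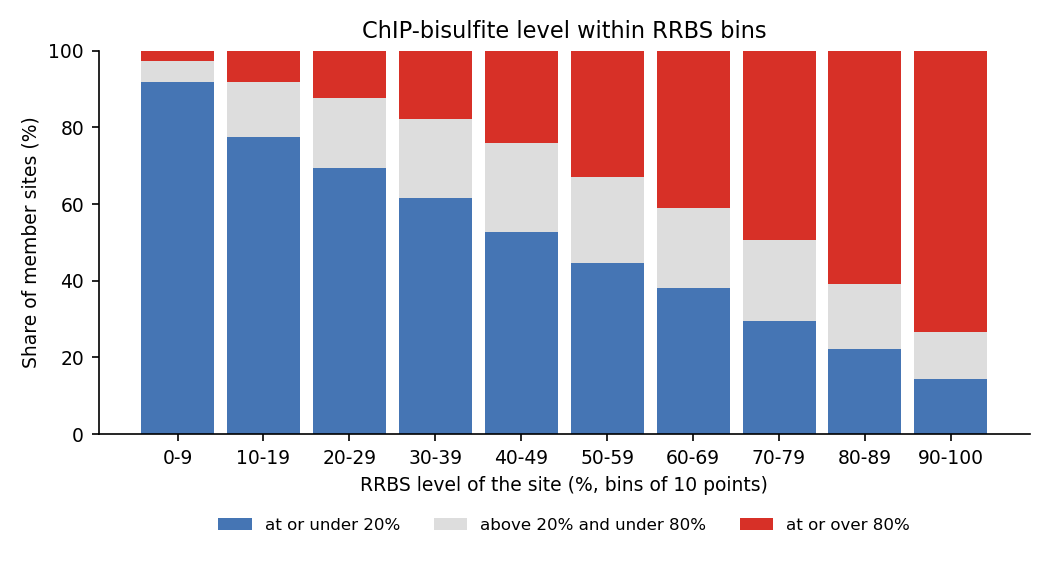
Share of member sites (%) with a ChIP-bisulfite level of at most 20% (blue), between (grey) and at least 80% (red), by bin of RRBS level. The blue share falls from 91.9% in the lowest bin to 14.3% in the highest, and the grey share stays at or under 23.2%.

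The gap also moved with RRBS read number inside a bin. At 90 to 100% it was -19.6 points for sites with 20 to 29 reads, -17.3 with 30 to 49, -12.4 with 50 to 99 and -6.01 (-9.11 to -2.90) with 100 or more. In the bin of 0 to 9% it was 5.01, 3.27, 1.84 and 1.35 points over the same read classes. At 30 to 39% the gap instead grew in size with read number, from -3.84 points with 20 to 29 reads to -18.3 (-22.0 to -14.6) with 100 or more, a class of 132 sites. It moved little at 60 to 69%, with -12.2, -13.9, -13.4 and -11.8 points, and at 70 to 79%, with -14.1, -14.9, -14.5 and -13.7.

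Without matching, sites near start sites had the smaller gap. Their mean gap was -4.40 points against -10.04 beyond, a difference of 5.64 points (4.46 to 6.83). Their RRBS level, 29.99% against 59.5%, was also far lower. With the RRBS bin held fixed the difference changed sign, to -1.59 points (SE 0.744, interval -3.05 to -0.128). At equal measured RRBS level the sites near start sites thus had, on average, slightly less methylation in ChIP-bisulfite than the others. The positive difference did not remain. The interval of the negative one came close to 0, and it held 0 under several of the settings given below. The sign also depended on the level that was matched. With bins of the mean RRBS level of the other sites in the same H3K4me1 peak, the difference was 3.05 points (1.99 to 4.12).

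The bins did not carry this contrast evenly. Near minus far was negative in 8 of 10 bins, and its interval lay below 0 in 2 of them. At 0 to 9% in RRBS the gap was 2.29 points near start sites (4224 sites) and 5.07 beyond (7733 sites), a difference of -2.77 (-3.41 to -2.13). At 10 to 19% it was -0.879 against 1.96 points, a difference of -2.84 (-4.82 to -0.849). From 20% upwards the differences ran from -2.13 to 1.29 points and all 8 intervals held 0. In the highest bin the difference was -0.425 (-2.91 to 2.06), over 871 sites near start sites and 14983 beyond. The intervals of single bins are not adjusted for the 10 bins.

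Inside Pol II PS5 peaks the pattern was alike in direction. Unmatched, the gap was -4.68 points inside and -9.40 outside, a difference of 4.72 (2.66 to 6.78), with mean RRBS levels of 25.7% and 56.3%. At equal RRBS level it became -2.68 points (SE 1.39, -5.41 to 0.0473), whose interval just held 0. In the bin of 0 to 9% the difference was -2.25 (-3.11 to -1.38) and at 10 to 19% it was -5.69 (-8.55 to -2.83). The other 8 bins held between 68 and 169 inside sites each, and their intervals were wide and all held 0. Inside minus outside was negative in 7 of 10 bins. It was positive in the bins from 70% upwards, with the highest value, 3.72 points, at 80 to 89%. Read numbers were unlike in these classes. The median was 41 RRBS reads inside and 29 outside over all bins, 96 against 30 at 10 to 19% and 89 against 29 at 20 to 29%. With 4 classes of read number (20 to 29, 30 to 49, 50 to 99, 100 or more) as a term, the inside minus outside difference was -1.84 (-2.86 to -0.812) at 0 to 9%, and at 10 to 19% it was -4.23 with an interval that held 0 (-9.54 to 1.07). With these classes crossed with all bins it was -1.68 (-3.23 to -0.131), and near minus far was -1.29 (-2.36 to -0.211). At 40 to 49% the inside minus outside difference without that term was -8.68 points with an interval from -19.6 to 2.28.

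A few regions weighed heavily in both contrasts. H3K4me1 peaks with more than 100 member sites numbered 4, and they held 1593 sites, of which 992 were near a start site and 608 inside a Pol II peak (31.8% of all inside sites). The largest, on scaffold_927 from 40 to 10214, held 803 sites with a median of 169 reads, at 21.8% in RRBS and 12.4% in ChIP-bisulfite. Its neighbour from 10897 to 27858 held 188 sites, at 28.8% and 17.1%. The peak on scaffold_537 from 187 to 13940 held 272 sites, at 25% and 14.2%. The peak on scaffold_13 from 48344145 to 48360429 had the smallest gap of the 4, with 57.7% in RRBS and 53.5% in ChIP-bisulfite over 330 sites.

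Without these 4 peaks the near minus far difference was -0.905 points (-1.85 to 0.0345) and the inside minus outside difference -1.32 (-3.33 to 0.698). In the bin of 0 to 9% the values hardly moved, at -2.88 (-3.51 to -2.25) and -2.22 (-3.31 to -1.13). At 10 to 19%, near minus far was -2.20 (-4.54 to 0.134), and inside minus outside was -8.10 (-12.4 to -3.85) on 83 inside sites. At 20 to 29% the inside minus outside difference turned from -1.50 to 10.98 (2.78 to 19.2), on 61 inside sites in place of 169. The lowest bin was therefore the one where both differences held with and without these peaks.

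**Figure D3:**
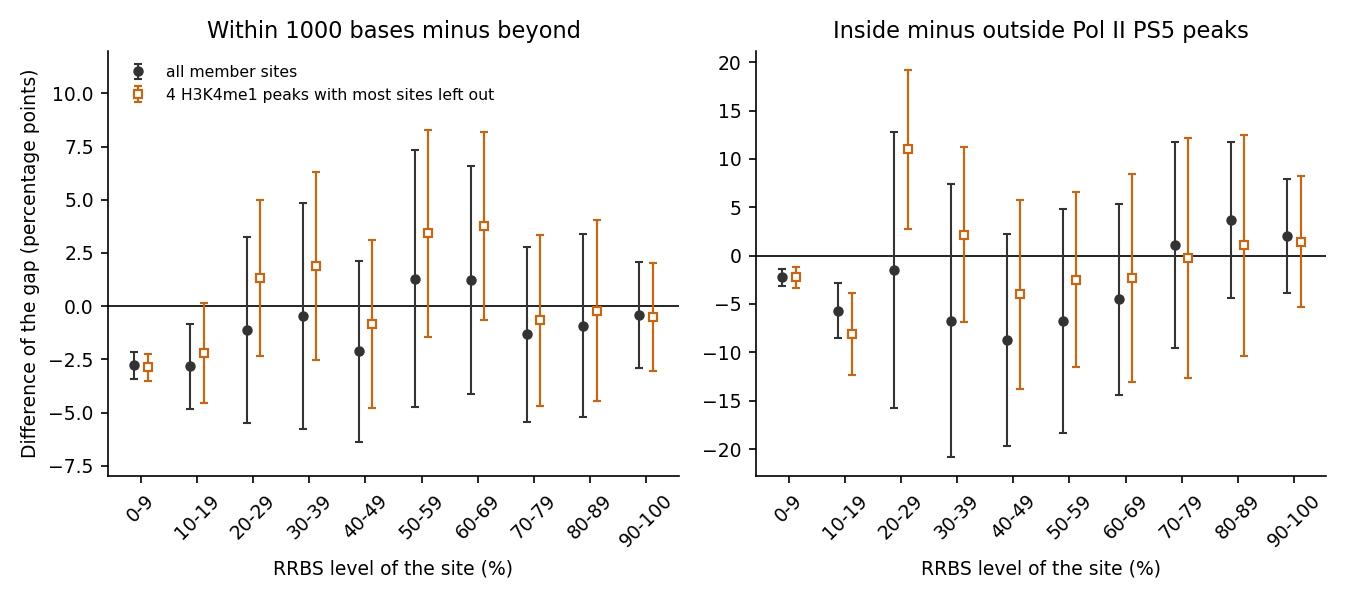
Difference of the gap (percentage points) in each bin of RRBS level, near minus far start sites (left) and inside minus outside Pol II PS5 peaks (right), with all member sites (filled) and with the 4 H3K4me1 peaks of over 100 member sites left out (open); bars are 95% intervals clustered by scaffold. Both differences lie below 0 at 0 to 9% in either set, while most intervals from 20% upwards hold 0.

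The contrast of the lowest bin was also present at a single measured RRBS level. A measured 0% does not fix the true level, since 0 of 29 reads allows up to 10.3%. Whether the true levels of the classes were equal there was not tested. Among sites at exactly 0% in RRBS, ChIP-bisulfite averaged 2.43% at 3349 sites near start sites and 4.83% at 5622 sites beyond, a difference of -2.40 points (-3.04 to -1.77). The median RRBS read number was 26 in both classes. A level of exactly 0% in both assays was listed at 91.5% of the near sites and 87.4% of the far ones, and a ChIP-bisulfite level of at least 80% at 28 (0.836%) and 125 sites (2.22%). Inside Pol II peaks, 638 sites at exactly 0% averaged 2.10%, against 4.07% at 8333 sites outside, a difference of -1.97 (-2.94 to -1.002). At exactly 100% in RRBS the mean was 83.7% at 446 near sites and 81.7% at 8197 far sites, and the interval of the difference (-1.14 to 5.21) held 0.

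Crossing the classes separated distance from Pol II in part. Outside Pol II peaks, near minus far at equal RRBS level was -1.28 points (-2.73 to 0.164), with -2.81 (-3.51 to -2.11) at 0 to 9%. Beyond 1000 bases of a start site, inside minus outside was -1.26 (-5.14 to 2.63), with -2.58 (-4.32 to -0.832) at 0 to 9% and -6.52 (-9.73 to -3.30) at 10 to 19%. Within 1000 bases of a start site, inside minus outside was -3.87 points (-5.72 to -2.02) and -3.13 (-5.41 to -0.849) without the 4 large peaks. There the lowest bins gave intervals that held 0, with -0.948 (-2.42 to 0.520) at 0 to 9%, -3.56 (-9.33 to 2.22) at 10 to 19% and -0.675 (-2.02 to 0.665) at exactly 0%. Without the large peaks the value at 0 to 9% was -1.30 (-2.55 to -0.0592). Inside Pol II peaks, near minus far was -4.47 (-8.54 to -0.389), with -1.18 (-3.67 to 1.31) at 0 to 9%, 0.507 (-3.91 to 4.93) at 10 to 19% and -0.574 (-2.52 to 1.37) at exactly 0%. In both of these crossings the other 8 bins held 5 to 74 sites that were near and inside, and no interval was formed for them. The difference between the Pol II contrasts near and far was itself -3.17 points (SE 3.07, -9.21 to 2.86). Without the large peaks it was -3.89 (SE 1.83, -7.49 to -0.285). The values were thus alike, and only the wider interval with these peaks held 0.

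Sites both near a start site and inside a Pol II peak numbered 791, in 204 H3K4me1 peaks, and averaged 12.8% in RRBS and 8.84% in ChIP-bisulfite. They were mostly unmethylated in both assays, with 460 of them at 0 to 9% in RRBS. Their few sites at middle levels had large negative gaps. The gap was -30.1 points over 8 sites at 40 to 49%, -36.4 over 5 sites at 50 to 59% and -47.3 over 11 sites at 60 to 69%. Sites inside Pol II peaks beyond 1000 bases had -15.7, -15.3 and -12.3 points in the same bins, over 63 to 65 sites each. With 4 to 6 H3K4me1 peaks behind each near value, no interval was formed.

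The shares of sites at high and low ChIP-bisulfite levels differed between the classes as well. At equal RRBS level, a ChIP-bisulfite level of at least 80% was rarer near start sites by 2.72 percentage points of sites (difference -2.72, -4.71 to -0.735), and a level of at most 20% was more frequent by 1.55 (0.178 to 2.93). Inside Pol II peaks the share at 80% or more differed by -5.39 points (-8.25 to -2.54). There the share between 20% and 80% was larger by 3.64 points (0.257 to 7.02), while the share at 20% or less differed by 1.75 (-2.58 to 6.09). All these shares include the large H3K4me1 peaks described above and were not computed without them.

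The authors' deposited list of differentially methylated sites was read against the bins in the same way. Among the member sites 6738 (9.76%) were listed as lower in ChIP-bisulfite, against 10.2% of all 167387 shared sites, and 1430 (2.07%) as higher, against 2.93%. These shares follow from levels that the bins already use, and nothing is read from them alone. Within an RRBS bin, a site is listed mainly by its ChIP-bisulfite level. The matched differences below therefore follow from the same ChIP-bisulfite levels and add no separate evidence. They cover only part of the RRBS bins, whereas the shares given above cover all bins. For the sites listed as lower, their sign is opposite to that of the share at 20% or less. Among sites at 70 to 100% in RRBS, 21.8% of the near and 22.0% of the far sites were listed as lower, a matched difference of -0.897 points (-3.23 to 1.43). Inside Pol II peaks 18.4% were listed as lower, against 22.0% outside, a matched difference of -5.69 (-12.4 to 1.07). Among sites at 0 to 29%, 3.62% of the near and 7.92% of the far sites were listed as higher, with a matched difference of -2.64 points (-4.31 to -0.976). Of the sites inside Pol II peaks 2.06% were listed as higher, against 6.99% outside, a matched difference of -4.13 (-7.36 to -0.900).

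To follow the gap along the genome, each site's gap was set against the mean gap of all member sites in its RRBS bin. Upstream of the start site this residual was -2.74 points (-4.68 to -0.797) from 500 to 200 bases before it and -3.70 (-6.48 to -0.918) in the last 200 bases. In the first 200 bases downstream it was -3.63 (-6.68 to -0.594). It was -0.116 (-1.79 to 1.56) from 200 to 500 bases downstream and reached 3.34 points (2.10 to 4.58) at 1000 to 2000 bases downstream, over 2952 sites in 1649 H3K4me1 peaks. Upstream at 1000 to 2000 bases it was 0.349 (-1.02 to 1.72). The mean RRBS level rose from 24.8% just upstream of the start site to 55.2% at 1000 to 2000 bases downstream, and the share of sites inside Pol II peaks fell from 20.2% to 0.949%.

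**Figure D4:**
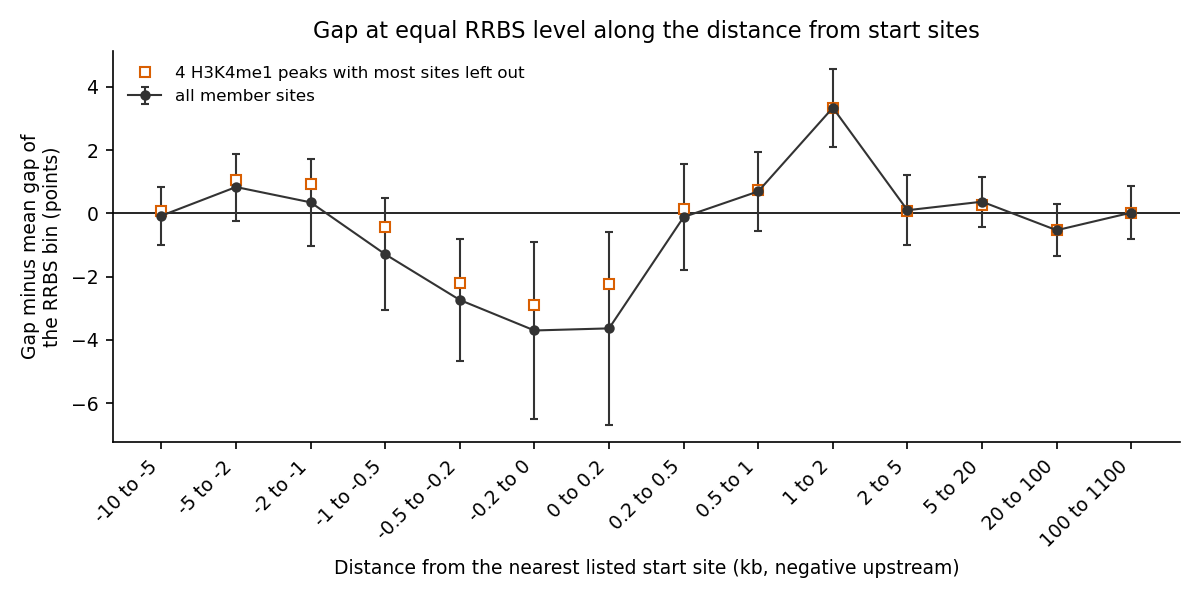
Mean residual, the gap minus the mean gap of the same RRBS bin (percentage points), by distance from the nearest listed start site (kb, negative upstream); bars are 95% intervals clustered by scaffold and open squares leave out the 4 H3K4me1 peaks of over 100 member sites. The residual is lowest within 0.2 kb of the start site, at -3.70 and -3.63 points, and highest 1 to 2 kb downstream, at 3.34 points.

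Leaving out the 4 large peaks moved the values next to the start site to -2.90 and -2.22 points and left the downstream value at 3.33. Around Pol II PS5 peaks the residual was -2.54 points (-5.40 to 0.309) inside, -1.62 (-4.18 to 0.930) within 200 bases and 2.48 (1.35 to 3.61) between 1000 and 2000 bases away, then fell to -0.804 (-1.46 to -0.151) between 20000 and 100000 bases. Without the large peaks it was -1.16 inside and -0.921 within 200 bases. Sites with a transcript carrying a Pol II PS5 score above 0 in the authors' table had a residual of 0.169 (-0.360 to 0.699), and those without -0.346 (-0.890 to 0.198).

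The number of C positions that RRBS measured within 100 bases also moved with the residual. It was 1.11 points (0.774 to 1.45) at sites with 1 to 5 such positions and -0.716 (-1.30 to -0.135) with 6 to 10. It fell to -3.18 (-4.27 to -2.09) with 11 to 20 and to -5.95 (-8.85 to -3.04) with 21 to 40. With 41 or more it was -10.3 over 386 sites in 5 H3K4me1 peaks, and -4.41 over the 10 sites left without the large peaks. From the first of these classes to that with 21 to 40 positions the share of sites near a start site rose from 8.62% to 50.3%, and the share inside Pol II peaks from 1.18% to 29.1%. In the densest class these shares were 80.8% and 8.55%. With this density crossed with the bin, near minus far was -0.424 points (-1.31 to 0.464) and inside minus outside -0.547 (-2.05 to 0.960). Sites in H3K4me1 peaks under 1000 bases wide, 871 in number, had a residual of 5.58 points (3.07 to 8.08).

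Single regions show how widely the residual varied between H3K4me1 peaks. Regions were named by the lowest and highest mean residual among peaks with at least 5 member sites of a class at a mean RRBS level of 20 to 80%. Among 133 such peaks near start sites and outside Pol II peaks the residual ran from -50.05 to 39.9 points, with a median of -1.05. Among 1931 peaks beyond and outside it ran from -64.4 to 58.8, with a median of -0.374. The extremes of these ranges are chosen by their values and carry no test. They also differ in RRBS level. Beyond and outside, the 2 lowest peaks averaged 79.6% and 77% in RRBS, and the 2 highest 20% and 45%.

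The lowest peak near a start site lay on scaffold_2369 from 21 to 6990, and its nearest start site was that of ENSCPOG00000020218. Its 9 sites at distances from -22 (upstream) to 29 bases of that start site had RRBS levels between 59% and 76% from 66 to 68 reads, and ChIP-bisulfite levels between 0% and 8%. The remaining site, at -958 bases, had 59% and 18%. All 10 sites were thus methylated in most RRBS reads and in few ChIP-bisulfite reads, on both sides of the start site.

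On scaffold_103, in the peak from 682072 to 687733, 5 sites at 575 to 615 bases downstream of the start site of ENSCPOG00000006422 had 52%, 55%, 50%, 40% and 72% in RRBS from 21 to 25 reads. All 5 were at 0% in ChIP-bisulfite. The opposite was seen on scaffold_32 from 14261203 to 14271239. There 5 sites at 641 to 919 bases downstream of the start site of ENSCPOG00000020676 had 88%, 84%, 66%, 58% and 74% in RRBS from 31 to 32 reads, and 95%, 100%, 100%, 100% and 100% in ChIP-bisulfite. In the peak on scaffold_42 from 1325620 to 1330531, near 2 start sites, 5 sites at 14%, 67%, 97%, 88% and 97% in RRBS were all at 100% in ChIP-bisulfite. Sites of one region share fragments and are not independent.

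Inside Pol II PS5 peaks and near a start site, only 2 peaks met the rule. In the peak on scaffold_6 from 3010864 to 3019721, 26 such sites averaged 68.0% in RRBS and 43.2% in ChIP-bisulfite, with a median of 96.5 reads. Within it the gap changed from site to site. At a distance of -124 bases from the start site (upstream) a site had 76% and 3%, and at 54 bases downstream one had 83% and 93%. One site 64 bases downstream, at 0% in RRBS and 46% in ChIP-bisulfite, was the only one of the 26 at 0% in RRBS. The second peak, on scaffold_3088 from 121 to 3274, had 7 such sites, of which 6 were at 0% in ChIP-bisulfite with RRBS levels from 0% to 38%, and 1 had 65% and 27%.

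Beyond 1000 bases and inside Pol II peaks, 14 peaks met the rule, with residuals from -36.7 to 43.6 points and a median of 11.3. On scaffold_161 from 687599 to 702926, 6 sites averaged 54.3% in RRBS and 7.83% in ChIP-bisulfite, and 2 of them were at 100% in RRBS with 8% and 0% in ChIP-bisulfite. On scaffold_75 from 7695877 to 7706454, 5 sites at 70%, 100%, 75%, 46% and 45% in RRBS had 95%, 100%, 100%, 95% and 100% in ChIP-bisulfite. The next lowest and next highest were a peak on scaffold_175 from 1116167 to 1118805, at 34.8% and 11.4% over 5 sites, and one on scaffold_90 from 3653904 to 3659172, at 47% and 64.2% over 6 sites. Both directions thus occurred inside Pol II peaks away from start sites.

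In the largest class, beyond 1000 bases and outside Pol II peaks, the lowest peak lay on scaffold_90 from 5005647 to 5010595. Its 5 sites had 83%, 76%, 90%, 83% and 66% in RRBS from 29 to 66 reads and 0% each in ChIP-bisulfite. On scaffold_39 from 18059008 to 18063299, 5 sites between 56% and 100% in RRBS were likewise all at 0%. The highest lay on scaffold_201 from 726731 to 730394, where 4 of 5 sites had 21%, 21%, 21% and 37% in RRBS and 100%, 100%, 92% and 92% in ChIP-bisulfite, and 1 was at 0% in both. On scaffold_27 from 3914814 to 3925872, 5 sites averaged 45% and 89.2%.

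The sign of the contrasts changed with what was held equal. With bins of the mean RRBS level of the other member sites in the same H3K4me1 peak, in place of the site's own, near minus far was 3.05 points (1.99 to 4.12) over 55365 sites and inside minus outside 2.73 (0.982 to 4.48). On the same sites, bins of their own level gave -1.62 (-3.13 to -0.110) and -2.54 (-5.30 to 0.229). With bins of the other sites, the sites' own RRBS levels still differed, by -13.3 points near against far and -15.0 inside against outside. With bins of their own level these differences were -0.248 and -0.141. With bins of the RRBS level of the position 1 base away, possible at 7684 sites, the differences were 1.34 (-1.66 to 4.33) and 2.44 (-1.53 to 6.41). Bins of their own level gave -2.81 (-7.04 to 1.41) and -1.46 (-6.59 to 3.68) on these sites, so that all 4 intervals held 0 in this subset. With bins of the ChIP-bisulfite level, sites near start sites had RRBS levels 18.6 points lower than sites beyond (difference -18.6, -19.9 to -17.3), and sites inside Pol II peaks differed from those outside by -18.7 (-21.1 to -16.4). The gap differences were then 18.4 and 18.8 points.

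**Figure D5:**
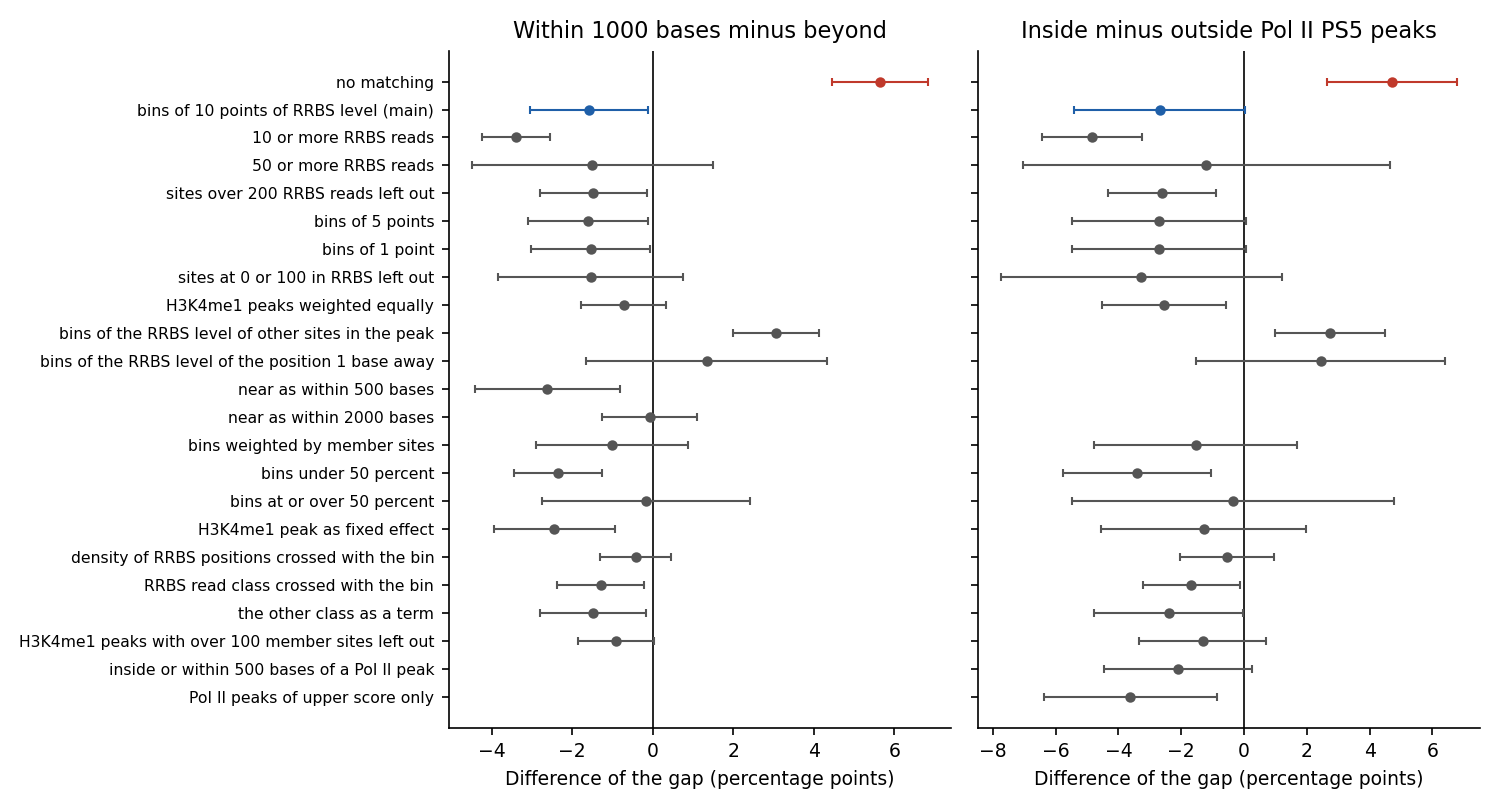
Difference of the gap (percentage points) near minus far start sites (left) and inside minus outside Pol II PS5 peaks (right), without matching (red), with bins of 10 points of RRBS level (blue) and under alternative settings (grey); bars are 95% intervals clustered by scaffold. The unmatched differences, 5.64 and 4.72 points, lie above 0, and the settings that bin by the site's own RRBS level lie at or below 0. Bins of the ChIP-bisulfite level, at 18.4 and 18.8 points, are left off the axis.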

How the data were processed

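All values pool the animals, and the sites and lists were chosen with earlier results of these data known. Methylation levels were deposited by the authors as whole percent per CG site for both assays. RRBS reads per C position, and ChIP-bisulfite reads and C positions per H3K4me1 peak, were deposited by the authors as counts. Pol II PS5 peaks and transcripts carry a score deposited by the authors, used only to rank. The submitters' processing notes name Bismark 0.12.5, BSMAP 2.74, Bowtie2 2.2.3, SAMtools 1.1, methylKit, MACS2 and HOMER 4.6, with no role or order. No source used here names the genome build (not given in the sources used here), so positions are printed as the files give them, and whether scaffolds start at 0 or 1 was not stated.

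The 241970 lines of the site table repeat a site for each transcript, and each site was counted once with its nearest start site. In 99.6% of the member sites the RRBS level matched a whole number of reads within 0.5 points. Every site of the authors' list had 30% or less by one method and 70% or more by the other. The gap was fitted by a linear model over sites with bins of 10 points of RRBS level (0 to 9, up to 90 to 100) as fixed effects. Errors were clustered by scaffold with a leverage-corrected sandwich estimate, and 95% intervals use the t distribution (numpy 2.4.6, pandas 2.3.3, scipy 1.17.1). An interval is given from 20 sites on 20 scaffolds per class. No p-value is given, because animals are pooled and sites share reads and chromosomes. The contrast was first tried on simulated gaps with normal errors and known differences, with the other class as a term. The main contrasts carry no such term, and the simulation held no counting error in the RRBS level that sets the bins. Within 1000 bases of a start site was called near. Inside meant that the CG start lay within a deposited Pol II PS5 peak. Named regions were the 2 H3K4me1 peaks with the lowest and the 2 with the highest mean residual per class, among those with at least 5 member sites of the class at a mean RRBS level of 20 to 80%. Most are named by position, since identifiers carry no symbols. The gene lists planned for cell types and pathways were not applied, because no gene identifier matched the reference names, and no sequence was used. The 3 libraries of the digestion control were not analysed here. Alternatives changed the read threshold, bin width, weights, distances, Pol II class and the level matched.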

Additional observations from a re-analysis of the deposited data

How the results depend on the processing

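The values below change 1 choice at a time for 5 results: near minus far, inside minus outside, near minus far outside Pol II peaks, inside minus outside beyond 1000 bases (all at equal RRBS level), and the mean gap at 40 to 59%. The settings with the position 1 base away, bins weighted by member sites, bins under or at and over 50%, density, read class, H3K4me1 peak as fixed effect, the other class as a term and large peaks left out were chosen after seeing the data. Near minus far (-1.59) kept its sign in 17 of 20 settings, with intervals below 0 in 9. Its interval held 0 with 50 or more reads (-1.50), without sites at 0 or 100% (-1.54), with H3K4me1 peaks weighted equally (-0.720), near as within 2000 bases (-0.0732), bins weighted by member sites (-1.01), bins at or over 50% (-0.161), density crossed with the bin (-0.424) and large peaks left out (-0.905). Inside minus outside (-2.68) kept its sign in 17 of 20, with intervals below 0 in 7: read class crossed with the bin (-1.68), 10 or more reads (-4.84), without sites over 200 reads (-2.61), peaks weighted equally (-2.55), Pol II peaks of upper score (-3.62), bins under 50% (-3.41) and the other class as a term (-2.40). Its interval held 0 in bins at or over 50% (-0.339), with 50 or more reads (-1.20) and with H3K4me1 peak as fixed effect (-1.28). It also held 0 with bins weighted by member sites (-1.54), density crossed with the bin (-0.547) and large peaks left out (-1.32). So it did with bins of 5 points (-2.72) or 1 point (-2.70) and without sites at 0 or 100% (-3.27). With sites within 500 bases of a Pol II peak counted as inside (-2.10) it held 0 as well. Near minus far outside Pol II peaks (-1.28) had intervals below 0 with 10 or more reads (-3.14), near as within 500 bases (-2.35), bins under 50% (-2.09) and H3K4me1 peak as fixed effect (-2.06), and turned to 0.165 within 2000 bases and 0.127 in bins at or over 50%. Inside minus outside beyond 1000 bases (-1.26) was -3.67 with 10 or more reads, with an interval below 0, and turned to 0.626 with 50 or more reads, 1.58 in bins at or over 50% and 0.535 with density crossed. All 4 turned positive with bins of other sites in the peak (3.05, 2.73, 3.08 and 3.08), of the position 1 base away (1.34, 2.44, 1.43 and 3.77) and of ChIP-bisulfite level (18.4, 18.8, 17.8 and 16.3). The mean gap at 40 to 59% (-9.55) was -7.71 with 10 or more reads, -11.7 with 50 or more, -11.2 in bins of ChIP-bisulfite level and -16.1 in bins of the position 1 base away, and negative in all 9 settings. The cause of these changes was not tested. No paired analysis was possible because the deposited columns pool the 3 animals, and no replicate could be left out. ChIP-bisulfite reads per site are unknown, so single levels have no interval.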
